A study of Mus musculus with 9 samples.

Results

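The interferon response and antigen processing genes described here were 42 mouse genes taken by name from a table of 21883 genes, and all 42 symbols were found once each. They comprised 4 transcription factors, 15 antiviral sensors and effectors, 5 regulators of the ISG15 and PARP pathways, 7 guanylate-binding proteins (GBPs), 5 immunity-related GTPases (IRGs) and 6 genes of antigen processing. They were followed in RNA from thymic invariant natural killer T (iNKT) cells, T cells that recognise glycolipids on CD1d and that pass from stage 2 (CD44 high, NK1.1 negative) to stage 3 (NK1.1 positive) as they mature. The study asked how this step proceeds and how it depends on Med23, a subunit of the Mediator complex. The wild type (WT) stage 2 and WT stage 3 groups held 3 libraries each from C57BL/6 mice 6 weeks old. The third group held 3 libraries of *Med23*-deficient stage 2 cells, also labelled C57BL/6, whose age the labels did not give. In these mice a *Cd4*-*Cre* transgene deletes floxed *Med23* from the double-positive thymocyte onward, so other T lineage cells of the same animals lacked Med23 too. No group was given an interferon or another stimulus, and the labels did not say whether the 3 libraries of a group came from separate mice, so the p-values measure only the spread between these libraries.

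Interferons bind surface receptors and signal through JAK kinases to STAT proteins. Type I interferon assembles ISGF3, a complex that holds STAT2 and IRF9 and binds interferon-stimulated response elements (ISREs), whereas interferon gamma acts through gamma-activated sites (GASs). The induced genes restrict viruses and intracellular bacteria, and they exchange catalytic subunits of the proteasome and supply peptide transporters for presentation on MHC class I. In T lineage cells many of these genes are also transcribed at a basal level without infection.

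The promoters are shown first because ISRE and GAS elements are the known targets of these factors upstream of interferon-induced genes. RefSeq promoter windows (GRCm38.p6) were matched by symbol for 30 of the 42 genes, and the 250 bases before each start were searched on both strands. The ISRE core was written TTTCNNTTTC (GAAANNGAAA on the other strand) and the GAS core TTCNNNGAA, which reads the same on both strands. The ISRE core was found in 14 of the 30 (46.7%), against 3.46% of all 27025 genes with a window, and the GAS core in 8 of the 30 (26.7%), against 8.13%. Windows of *Bst2*, *Gbp7*, *Igtp* and *Irgm2* held both cores, which overlapped each other in *Bst2*, and 12 windows held neither. No window was matched for *Zbp1*, *Mx1*, *Ifi27l2a*, *Usp18*, *Parp9*, *Parp14*, *Gbp4*, *Gbp6*, *Gbp8*, *Gbp9*, *Iigp1* or *Tap2*. Below are the most abundant member (*B2m*, chr2:122147537-122147685), an effector with a pair of ISRE cores (*Ifit1*, chr19:34640769-34640870) and a GTPase with both cores (*Igtp*, chr11:58199456-58199555), each on the plus strand, ending before the gene model, with the cores in capitals. *Ifit1* and *Igtp* were chosen after their values were seen. A match is a run of letters and not a measured binding site.
B2m: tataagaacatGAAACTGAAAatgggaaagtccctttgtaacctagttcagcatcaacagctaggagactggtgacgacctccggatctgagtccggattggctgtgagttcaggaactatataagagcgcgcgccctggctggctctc
Ifit1: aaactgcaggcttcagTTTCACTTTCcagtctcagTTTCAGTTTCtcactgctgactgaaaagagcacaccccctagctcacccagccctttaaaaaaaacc
Igtp: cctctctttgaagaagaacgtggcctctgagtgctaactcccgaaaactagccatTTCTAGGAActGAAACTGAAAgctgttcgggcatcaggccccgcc

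Values were fragments per kilobase of transcript scaled to the library's total (FPKM), so the number of reads behind each is unknown and no counting interval can be given. Between 15584 and 17333 genes were above 0 in each library. *Med23* itself stood at 5.51, 5.15 and 6.74 FPKM in WT stage 2, at 7.14, 4.44 and 6.12 in WT stage 3 and at 4.80, 3.60 and 3.92 in the *Med23*-deficient libraries. It was thus lower in every *Med23*-deficient library than in any WT stage 2 library, with an adjusted p of 0.552 (limma). The summed level of 9 T and iNKT cell markers was 993 to 1279 FPKM in all libraries, but single markers moved in opposite directions. At WT stage 3, *Il2rb*, *Tbx21* and *Klrb1c* rose and *Zbtb16* fell by at least 2-fold with an unadjusted p up to 0.05 (limma). Of all genes, 1.70% rose and 1.90% fell past these limits. In *Med23*-deficient cells *Klrb1c* fell past the same limits (1.32% of all genes). No listed marker of double-positive thymocytes, B cells, macrophages, thymic epithelium or erythroid cells exceeded 3.05 FPKM. In the dendritic list only *Ccr9*, which thymocytes and T cells also express, exceeded 1 FPKM, and *Ms4a1* was not analysed here. The summed level of 7 genes of dividing cells was 85.3 to 97.7 FPKM in WT stage 2, 36.2 to 55.0 in WT stage 3 and 30.6 to 31.0 in *Med23*-deficient cells, and its part in the results below was not tested. One WT stage 3 library, replicate 2, carried *Xist* at 47.45 FPKM and the 4 listed Y-linked genes at 0, unlike the other 8 libraries, so sex was not matched between the groups. In these bulk samples, fewer cells of a kind and less RNA per cell cannot be told apart.

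All 42 members were above 0 in every library, with means over the 9 libraries from 3.40 FPKM for *Iigp1* to 1074 for *B2m*. The median member mean was 16.7 FPKM in WT stage 2, 17.9 in WT stage 3 and 20.2 in *Med23*-deficient stage 2 cells. Most of the set differed little between groups. From WT stage 2 to stage 3 the difference in log2(FPKM + 1) was below 0.58 in size for 35 of 42 members, and between *Med23*-deficient and WT stage 2 cells for 36 of 42. The share of all genes below that size was not counted, so it is not known whether this sets the members apart. The median difference of the members was -0.14 between the WT stages, with 27 of 42 lower at stage 3, beside -0.01 over all 20689 genes tested, of which 53.1% were lower. Between *Med23*-deficient and WT stage 2 cells it was 0.03, with 19 of 42 lower, beside -0.01 over all 20674 genes tested, of which 52.6% were lower. Scaled to a common total (TPM), the *Med23*-deficient median became -0.09, with 28 of 42 lower, and with a common upper quartile it became 0.13, with 12 lower. The TPM scale moved the median of genes with a mean of at least 1 FPKM from -0.05 to -0.16 in that comparison and to -0.14 in the WT comparison, and the upper quartile moved it to 0.04 and 0.02.

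**Figure D1:**
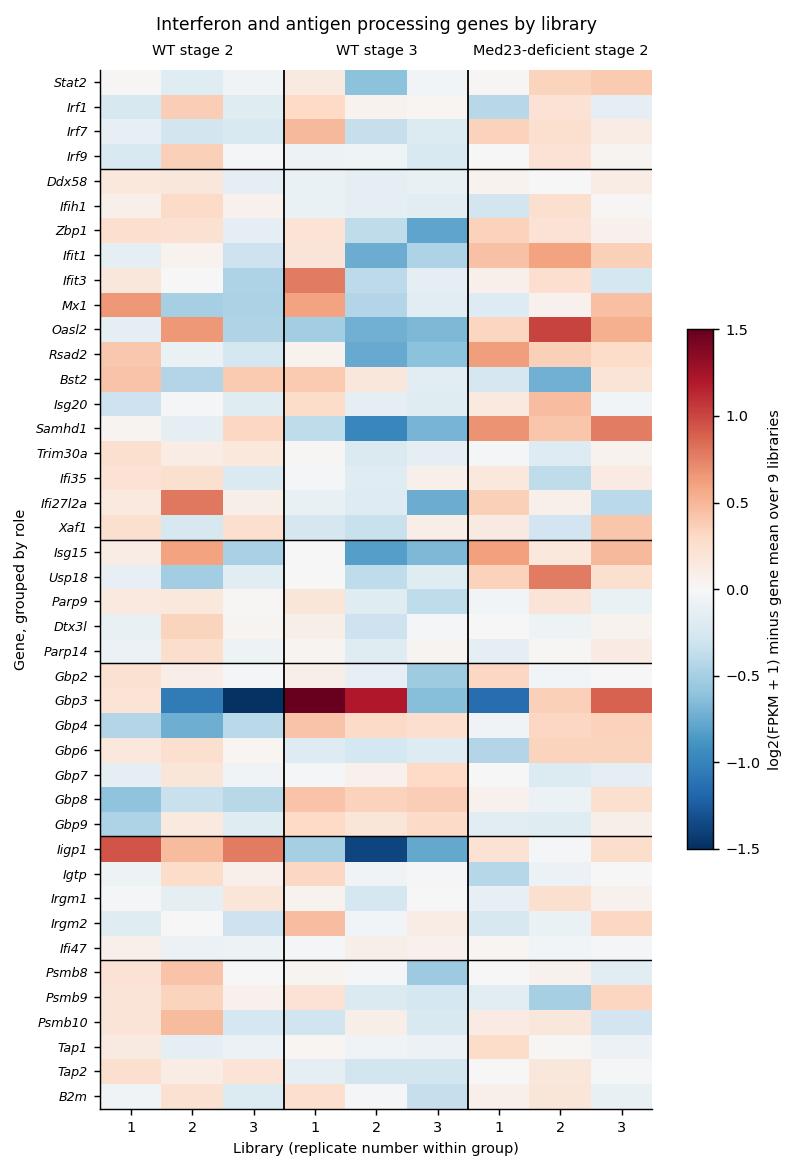
Each row is 1 of the 42 genes in order of role and each column 1 of the 9 libraries; colour gives log2(FPKM + 1) minus the gene's mean over the libraries, red above and blue below, with colours saturating at 1.5. WT stage 3 replicate 1 is redder than replicates 2 and 3 for most rows, being the highest of its group for 36 of 42 genes, and *Gbp4* and *Gbp8* are blue throughout WT stage 2.

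The members did not move independently of each other within a library. WT stage 3 replicate 1 held the highest value of its group for 36 of 42 members (85.7%), although it was highest for 34.2% of genes with a mean of at least 1 FPKM. Its median difference from the other two was 0.29 on the log2 scale. *Ifit3* shows the pattern, whose WT stage 3 libraries held 67.4, 29.3 and 35.3 FPKM. Without that library the members' median between the WT stages was -0.19, with 33 of 42 lower, and without replicate 2 it was -0.04, with 24 lower. In WT stage 2, replicate 2 was highest for 23 of 42 members (54.8%), beside 36.3% of genes with a mean of at least 1 FPKM.

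In the comparison of WT stage 3 with WT stage 2 cells, a pair of GBP genes passed 1 threshold upward. A single IRG gene passed the other downward. *Gbp4* and *Gbp8* were the members with an adjusted p of at most 0.05 (limma, 2 of 42, both higher, and 0 lower, where 1.67% of all genes passed, 0.759% upward and 0.914% downward). *Iigp1* was the member past the study's own thresholds, a 2-fold change with an unadjusted p up to 0.05 (1 of 42, lower, and 0 higher, where 3.60% of all genes passed, 1.70% upward and 1.90% downward). By that rule the members were thus not called more often than all genes. An unadjusted p of at most 0.05 was reached by 9 members (13.2% of all genes), 3 upward (5.44%) and 6 downward (7.79%). The 2 groups did not overlap for 11 members (17.8% of all genes), 3 higher (7.36%) and 8 lower (10.4%) at stage 3.

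The GBPs are interferon-induced GTPases that assemble on vacuoles and on bacteria in the cytosol. *Gbp4* stood at 12.1, 9.66 and 12.4 FPKM in WT stage 2 against 22.9, 20.6 and 20.1 in WT stage 3. Every stage 3 library thus exceeded every stage 2 library, and *Gbp4* rose by 0.85 (SE 0.13, adjusted p = 0.042, limma). *Gbp8* stood at 15.2, 18.4 and 17.3 FPKM in WT stage 2 against 32.03, 30.1 and 30.6 in WT stage 3. It rose by 0.83 (SE 0.10, adjusted p = 0.0251, limma), again with no overlap. Both calls were lost whichever library was left out, the adjusted p reaching 0.0773 to 0.132 for *Gbp4* and 0.0518 to 0.108 for *Gbp8*, while the differences stayed at 0.74 or above.

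These genes lie together on chromosome 5 (mm10, minus strand), and their values are not independent. The model of *Gbp8* (chr5:105014150-105139540) takes in that of *Gbp9* (chr5:105077630-105139539) over 61910 bases and overlaps that of *Gbp4* (chr5:105115767-105139586) over 23774 bases on the same strand. Of the 50-base stretches of the longest annotated transcript, 18.2% of those of *Gbp8* and 12.8% of those of *Gbp4* also occurred in transcripts of other genes. *Gbp9* was at 18.3, 28.3 and 22.3 FPKM in WT stage 2 and 31.6, 29.0 and 31.4 in WT stage 3, a difference of 0.42 (SE 0.16, adjusted p = 0.34) that was 0.28 without WT stage 2 replicate 1. *Gbp6*, in the same cluster, differed the other way by -0.36 (SE 0.11, adjusted p = 0.241) without overlap, but 51.5% of its stretches were shared with the gene model *Gm43302*. *Gbp2*, *Gbp3* and *Gbp7* lie on chromosome 3, and the groups overlapped for each. *Gbp3* varied most within groups, from 6.49 to 23.1 FPKM in WT stage 2 and from 12.4 to 64.8 in WT stage 3, so that its difference of 1.51 carried an SE of 0.71 (adjusted p = 0.441). With a library left out the difference was 1.05 to 2.20, and it passed the fold and p thresholds when WT stage 2 replicate 1 or WT stage 3 replicate 3 was the one left out.

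The IRGs, like the GBPs, act on vacuoles that hold pathogens, effectors such as *Iigp1* under the control of the regulators *Irgm1*, *Irgm2* and *Igtp*. *Iigp1* stood at 6.58, 4.48 and 5.74 FPKM in WT stage 2 against 1.78, 0.51 and 1.31 in WT stage 3. The stage 3 values were all below the stage 2 values, and *Iigp1* fell by 1.62 (SE 0.30, unadjusted p = 0.00172, adjusted p = 0.0714, limma). Leaving out any 1 library kept it past the fold and p thresholds. The groups overlapped for the other 4 IRG genes, and *Ifi47* was the steadiest, at 22.2 to 25.3 FPKM over the 9 libraries. *Igtp* and *Irgm2* have models that overlap on the same strand over 7974 bases, and their promoter windows both carry the ISRE and GAS cores.

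**Figure D2:**
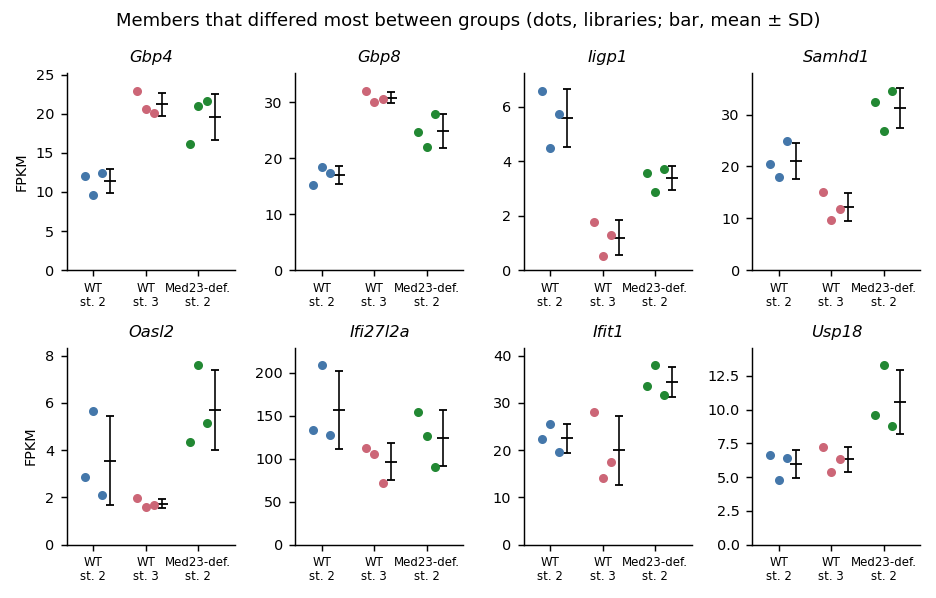
FPKM of 8 members in each of the 9 libraries (dots, with replicates 1 to 3 of a group from left to right), with the mean and SD of each group beside them; every axis starts at 0. *Gbp4* and *Gbp8* are lowest in WT stage 2, *Iigp1* is highest there, and *Samhd1* is lowest in WT stage 3 and highest in the *Med23*-deficient libraries.

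Among the 15 antiviral sensors and effectors, 5 were lower in every WT stage 3 library than in any stage 2 library (10.4% of all genes). No member of the group passed either threshold. *Samhd1*, which hydrolyses deoxynucleotides and so restricts retroviruses, was at 20.4, 17.9 and 24.9 FPKM in WT stage 2 against 15.02, 9.64 and 11.9 in WT stage 3. The difference was -0.75 (SE 0.19, unadjusted p = 0.00789, adjusted p = 0.151). *Ifi27l2a*, a member of the family of small interferon-induced ISG12 proteins, was at 133, 208 and 128 FPKM in WT stage 2 against 112, 105 and 71.5 in WT stage 3. Its difference was -0.69 (SE 0.25, adjusted p = 0.315), and only *B2m* had a higher mean level among the members. *Oasl2*, a protein of the oligoadenylate synthetase family, was at 2.86, 5.67 and 2.11 FPKM against 1.97, 1.58 and 1.66, a difference of -0.66 (SE 0.33, adjusted p = 0.477) that was -0.34 without WT stage 2 replicate 2. *Trim30a*, a TRIM family ubiquitin ligase, and *Ifih1*, the RNA sensor MDA5, differed by -0.29 (SE 0.10, adjusted p = 0.267) and -0.28 (SE 0.14, adjusted p = 0.472). The groups overlapped for the other 10, among them *Ddx58* (the sensor RIG-I, 15.4 to 19.4 FPKM over all libraries), *Zbp1* (a sensor of Z-form nucleic acid, 20.7 to 46.4) and *Mx1* (a dynamin-like antiviral GTPase, 2.45 to 6.62).

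The transcription factors *Stat2*, *Irf1*, *Irf7* and *Irf9* overlapped between the WT stages, as did *Isg15*, *Usp18*, *Parp9*, *Dtx3l* and *Parp14*, and no difference in these 9 members passed a threshold. *Irf7* was at 17.4, 9.30 and 10.3 FPKM in WT stage 3 beside 11.02, 9.80 and 10.2 in WT stage 2, so the high value was again that of replicate 1. *Isg15*, a ubiquitin-like modifier, ranged from 10.2 to 22.9 FPKM in WT stage 2 and from 7.89 to 14.9 in WT stage 3. *Parp9* and *Dtx3l*, partners in ADP-ribosylation and ubiquitination, have models that overlap by 682 bases on opposite strands.

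**Figure D3:**
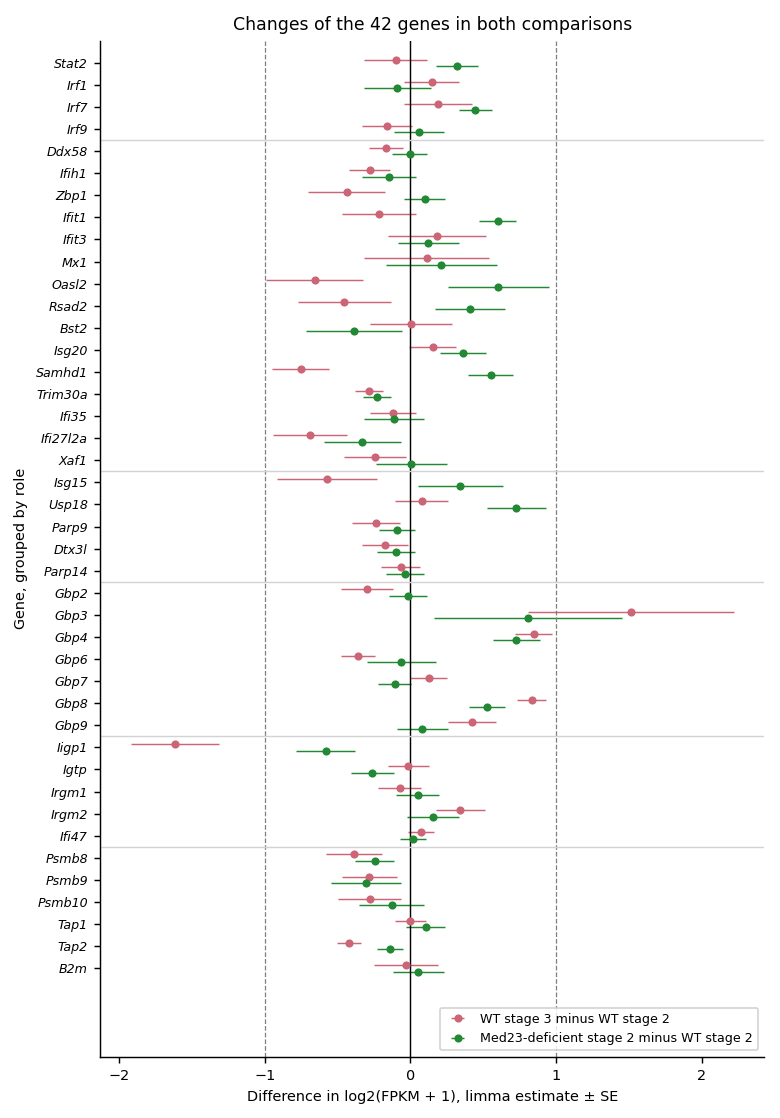
Difference in log2(FPKM + 1) with its SE (limma, 3 libraries against 3) for the 42 genes in order of role, WT stage 3 minus WT stage 2 in red and *Med23*-deficient minus WT stage 2 in green; dashed lines mark a 2-fold change. Both sets of points use the same WT stage 2 libraries; *Samhd1* lies at -0.75 and 0.55, and *Gbp4* at 0.85 and 0.73.

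In *Med23*-deficient compared with WT stage 2 cells, no member passed either threshold in limma. The fold and p thresholds passed 0 of 42 (2.11% of all genes, 0.798% upward and 1.32% downward) and the adjusted p 0 of 42 (0.213%, 0.0677% upward and 0.145% downward), and an ordinary linear model after Ballgown, the tool of the study, also called 0 by both. At an unadjusted p of at most 0.05 there were 7 members (9.58% of all genes), 6 upward (3.56%) and 1 downward (6.02%). The groups did not overlap for 8 members (14.0% of all genes), 6 higher (5.63%) and 2 lower (8.37%) in *Med23*-deficient cells. The 6 that were higher were *Ifit1*, *Usp18*, *Irf7*, *Samhd1*, *Gbp4* and *Gbp8*, and the 2 that were lower were *Iigp1* and *Trim30a*.

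*Ifit1*, which binds viral RNA that lacks a host cap, was at 22.3, 25.5 and 19.6 FPKM in WT stage 2 against 33.7, 37.9 and 31.7 in *Med23*-deficient cells. The difference was 0.60 (SE 0.13, unadjusted p = 0.00308, adjusted p = 0.189), whereas the WT stage 3 libraries, at 28.1, 14.2 and 17.5, overlapped WT stage 2. *Ifit3*, its neighbour on chromosome 19, overlapped between all groups, but 51.2% of its 50-base stretches occurred in *Ifit3b*. *Usp18*, the protease that removes ISG15 and that restrains signalling at the type I receptor, was at 6.65, 4.79 and 6.43 FPKM in WT stage 2 against 9.60, 13.3 and 8.82 in *Med23*-deficient cells. The difference was 0.72 (SE 0.20, unadjusted p = 0.0114, adjusted p = 0.304), and WT stage 3 was at 7.25, 5.40 and 6.34. *Irf7*, a factor that amplifies type I interferon transcription, was at 15.7, 14.4 and 13.2 FPKM in *Med23*-deficient cells, a difference of 0.45 (SE 0.11, adjusted p = 0.26). *Isg15* itself, at 23.1, 16.5 and 21.2 FPKM, *Oasl2*, at 4.32, 7.58 and 5.16, and *Ifi27l2a*, at 155, 127 and 90.6, overlapped WT stage 2.

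*Samhd1* was at 32.4, 26.9 and 34.5 FPKM in *Med23*-deficient cells, above every WT library of either stage, with a difference from WT stage 2 of 0.55 (SE 0.15, unadjusted p = 0.0114, adjusted p = 0.304). It was therefore the member whose groups did not overlap in either comparison and whose signs differed. *Gbp4*, at 16.2, 20.9 and 21.6 FPKM, differed by 0.73 (SE 0.16, adjusted p = 0.197), and *Gbp8*, at 24.6, 22.1 and 28.0, by 0.53 (SE 0.13, adjusted p = 0.224). Their levels in *Med23*-deficient cells lay above WT stage 2 in every library, and for *Gbp8* below every WT stage 3 library. *Iigp1*, at 3.57, 2.89 and 3.71 FPKM, lay between WT stage 3 and WT stage 2 without overlap with either, and differed from WT stage 2 by -0.58 (SE 0.20, unadjusted p = 0.0278, adjusted p = 0.422). *Trim30a* differed by -0.23 (SE 0.10, adjusted p = 0.538), at 30.9, 27.2 and 32.5 FPKM beside 37.3, 33.9 and 35.2. *Med23*-deficient stage 2 and WT stage 3 cells were not tested against each other, and both comparisons share the WT stage 2 libraries.

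The genes for interferon gamma and both chains of its receptor changed between the WT stages. Of 10 interferon ligand genes listed, only *Ifng*, for interferon gamma, was analysed here. It stood at 1.97, 5.89 and 2.07 FPKM in WT stage 2 against 25.3, 42.3 and 23.6 in WT stage 3, and rose by 2.93 (SE 0.40, adjusted p = 0.0343, limma). *Ifngr1*, the chain of its receptor that binds the ligand, was at 24.6, 24.6 and 25.9 FPKM in WT stage 2 against 106, 89.9 and 121 in WT stage 3, and rose by 2.03 (SE 0.12, adjusted p = 0.00442, limma). *Ifngr2*, the chain needed for signalling, was at 4.78, 2.41 and 5.01 FPKM in WT stage 2 and listed at 0, 0 and 0.07 in WT stage 3, and fell by 2.26 (SE 0.29, adjusted p = 0.0291, limma). The size of that fall rests on the constant added before taking logs, reaching -7.60 with 0.01. The 2 chains of 1 receptor thus moved in opposite directions. *Ifngr1* was the gene of these whose call held whichever library was left out. *Ifng* and *Ifngr2* kept an adjusted p of at most 0.05 only where WT stage 2 replicate 2 was the one left out, and otherwise reached up to 0.112 and 0.123.

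In *Med23*-deficient cells these 3 genes overlapped WT stage 2, *Ifng* at 2.26, 3.77 and 4.74 FPKM, *Ifngr1* at 22.6, 26.3 and 43.0 and *Ifngr2* at 4.28, 5.67 and 4.04. The differences were 0.17 (SE 0.42), 0.23 (SE 0.23) and 0.19 (SE 0.28), with adjusted p of 0.749 to 0.902. The type I receptor genes *Ifnar1* and *Ifnar2* differed by 0.23 (SE 0.13) and 0.31 (SE 0.15) at WT stage 3 and by 0.02 (SE 0.14) and 0.38 (SE 0.13) in *Med23*-deficient cells, without passing a threshold. Of the 14 receptor and signalling genes listed, *Ifngr1* and *Ifngr2* were those that passed a threshold at WT stage 3. In *Med23*-deficient cells 0 passed, and 2 had an unadjusted p of at most 0.05 (9.58% of all genes).

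**Figure D4:**
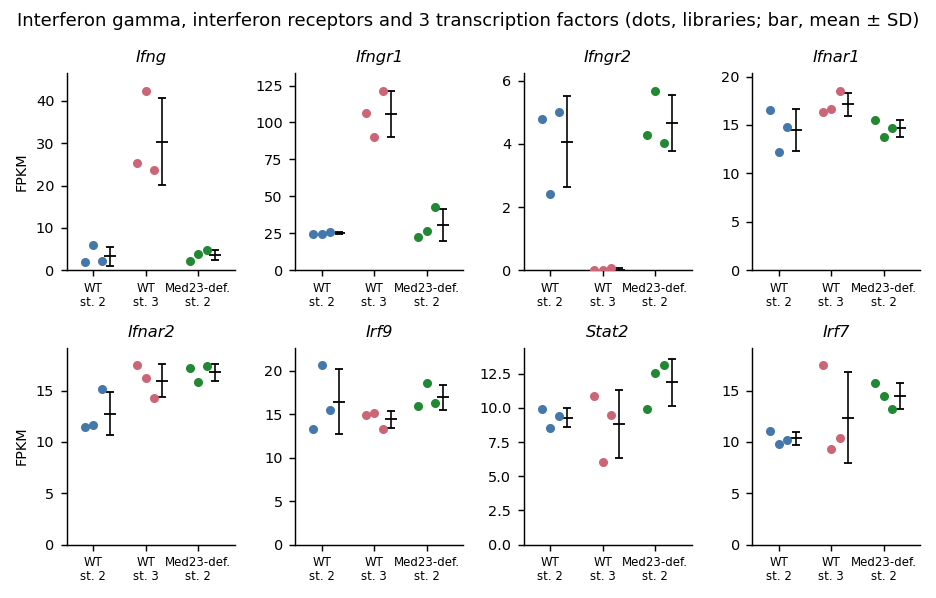
FPKM of interferon gamma, 4 interferon receptor chains and the transcription factor genes *Irf9*, *Stat2* and *Irf7* in each of the 9 libraries (dots), with the mean and SD of each group; every axis starts at 0. *Ifng* and *Ifngr1* are high and *Ifngr2* is at or near 0 in the 3 WT stage 3 libraries, while the *Med23*-deficient libraries overlap WT stage 2 for all 3 genes.

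Among 9 further interferon regulatory factor genes, *Irf4*, a factor that T cells induce on antigen receptor signalling, fell at WT stage 3 by 2.55 (SE 0.32, adjusted p = 0.0286, limma), from 7.04, 6.29 and 10.3 FPKM to 0.08, 1.01 and 0.52. Of 10 tested adaptors and kinases of nucleic acid sensing, *Ikbke*, a kinase that activates IRF3 and IRF7, fell by 0.87 (SE 0.12, adjusted p = 0.0383, limma), from 14.3, 14.0 and 16.6 FPKM to 6.99, 8.22 and 7.97. In *Med23*-deficient cells 0 of either list passed a threshold, and 0 had an unadjusted p of at most 0.05. Both of the calls at WT stage 3 lost an adjusted p of 0.05 whichever library was left out, with differences of -2.32 or beyond for *Irf4* and -0.80 or beyond for *Ikbke*. That of *Irf4* reached -4.40 with 0.01 added before taking logs.

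The 6 members of antigen processing were the immunoproteasome subunits *Psmb8*, *Psmb9* and *Psmb10*, the peptide transporter chains *Tap1* and *Tap2*, and *B2m*, the light chain of MHC class I. None of the 6 passed a threshold in either comparison, and *Tap2* was the one without overlap, between the WT stages. *Tap2* was at 37.5, 34.0 and 36.5 FPKM in WT stage 2 against 28.3, 25.8 and 25.8 in WT stage 3, a difference of -0.42 (SE 0.08, unadjusted p = 0.00242, adjusted p = 0.084). Its partner *Tap1* stayed between 17.9 and 24.4 FPKM in all 9 libraries. *B2m*, the most abundant member, was at 1026, 1247 and 926 FPKM in WT stage 2, at 1268, 1045 and 840 in WT stage 3 and at 1123, 1203 and 982 in *Med23*-deficient cells, and all 3 groups overlapped. *Psmb8* was at 58.1, 67.7 and 49.9 FPKM in WT stage 2, at 51.3, 49.3 and 33.9 in WT stage 3 and at 49.7, 52.5 and 44.7 in *Med23*-deficient cells, with overlap in both comparisons.

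Each immunosubunit replaces a constitutive one, so their ratio in a library was also taken. *Psmb8* to *Psmb5* was 2.43 ± 0.67 (SD, n = 3) in WT stage 2, 3.09 ± 0.57 in WT stage 3 and 2.59 ± 0.11 in *Med23*-deficient cells. *Psmb9* to *Psmb6* was 0.34 ± 0.08, 0.36 ± 0.07 and 0.40 ± 0.16, and *Psmb10* to *Psmb7* was 3.44 ± 1.41, 2.86 ± 0.18 and 3.48 ± 0.81. For each of the 3 ratios the libraries of all 3 groups overlapped. *Psmb9* and *Tap1* are read in opposite directions on chromosome 17, and their models overlap by 212 bases.

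Among the MHC class I heavy chain genes, which were not members, *H2-K1*, *H2-D1*, *H2-Q4*, *H2-Q6* and *H2-Q7* were above every WT stage 2 library in all libraries of both other groups. The nonclassical *H2-Q10*, *H2-T22*, *H2-T23*, *H2-T24* and *H2-M3* differed by -0.16 to 0.20 at WT stage 3, where *H2-T24* was lower without overlap. In *Med23*-deficient cells they differed by -0.02 to 0.27, and *H2-T22* and *H2-T24* were higher than in WT stage 2 without overlap. *H2-K1*, a classical heavy chain, was at 219, 227 and 195 FPKM in WT stage 2, at 365, 346 and 323 in WT stage 3 and at 328, 369 and 372 in *Med23*-deficient cells. It rose by 0.69 at WT stage 3 (SE 0.10, adjusted p = 0.042, limma) and differed by 0.73 in *Med23*-deficient cells (SE 0.10, adjusted p = 0.0746). *H2-Q6*, a nonclassical heavy chain, was at 39.7, 51.6 and 51.3 FPKM in WT stage 2, at 119, 108 and 154 in WT stage 3 and at 104, 114 and 142 in *Med23*-deficient cells. It rose past the fold and p thresholds in both comparisons, by 1.40 (SE 0.17, adjusted p = 0.0274, limma) and 1.31 (SE 0.16, adjusted p = 0.0576, limma). *H2-Q7* rose by 0.89 at WT stage 3 (SE 0.13, adjusted p = 0.042, limma) and differed by 0.996 in *Med23*-deficient cells (SE 0.13, adjusted p = 0.0673), just under the fold threshold. Of the 50-base stretches of *H2-Q6* and *H2-Q7*, 31.97% and 27.1% occurred in transcripts of other genes, so their values are uncertain. The shares for *H2-K1* and *H2-D1* were smaller, at 8.11% and 14.3%, but not 0.

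*H2-D1* did not overlap WT stage 2 in either comparison, with differences of 0.39 (SE 0.16, adjusted p = 0.376) and 0.51 (SE 0.14, adjusted p = 0.282). *Nlrc5*, the transactivator of class I genes, was at 13.9, 21.7 and 25.2 FPKM in WT stage 2, at 27.7, 29.9 and 33.7 in WT stage 3 and at 24.6, 21.9 and 36.1 in *Med23*-deficient cells, with differences of 0.60 (SE 0.22, adjusted p = 0.319) and 0.43 (SE 0.27, adjusted p = 0.705). Without WT stage 2 replicate 1 they were 0.36 and 0.19, and without *Med23*-deficient replicate 3 the second was 0.23. Going the other way, *Canx*, a chaperone of the folding heavy chain, fell at WT stage 3 by 0.55 (SE 0.09, adjusted p = 0.0473, limma), and *Erap1*, which trims peptides in the endoplasmic reticulum, by 0.52 (SE 0.08, adjusted p = 0.0453, limma). Of 20 listed genes of class I and peptide loading, 3 were higher (0.759% of all genes) and 2 lower (0.914%) at an adjusted p of at most 0.05 at WT stage 3. In *Med23*-deficient cells there were 0 by limma, with 6 higher (3.56%) and 2 lower (6.02%) at an unadjusted p of at most 0.05. Under the 12 other settings of that comparison, *H2-Q6* reached an adjusted p of at most 0.05 in 6, *H2-Q7* in 4, *H2-K1* in 3 and *H2-D1* in 0. With a library left out, none of these genes did. All 5 of the calls at WT stage 3 were lost whichever library was left out, with directions kept, and the adjusted p of *H2-Q6* then reached 0.0638 to 0.0863. Of 11 constitutive subunit and proteasome activator genes 0 passed either threshold in either comparison. An unadjusted p of at most 0.05 was reached by 3 in each, all lower. Of all genes, 7.79% did so downward at WT stage 3 and 6.02% in *Med23*-deficient cells. Of 10 genes of MHC class II presentation, *H2-DMa* and *Cd74* passed the fold and p thresholds downward at WT stage 3 (1.90% of all genes). They fell by 1.63 (SE 0.26, adjusted p = 0.0472, limma) and 1.55 (SE 0.52, adjusted p = 0.267, limma). *Cd74* was low, at 5.56, 5.56 and 1.49 FPKM in WT stage 2 and 0, 0.83 and 1.31 in WT stage 3. With a library left out the adjusted p was 0.0636 to 0.154 for *H2-DMa* and 0.164 to 0.473 for *Cd74* (limma). In *Med23*-deficient cells 0 of the 10 passed a threshold in limma, and 0 at an unadjusted p of at most 0.05.

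**Figure D5:**
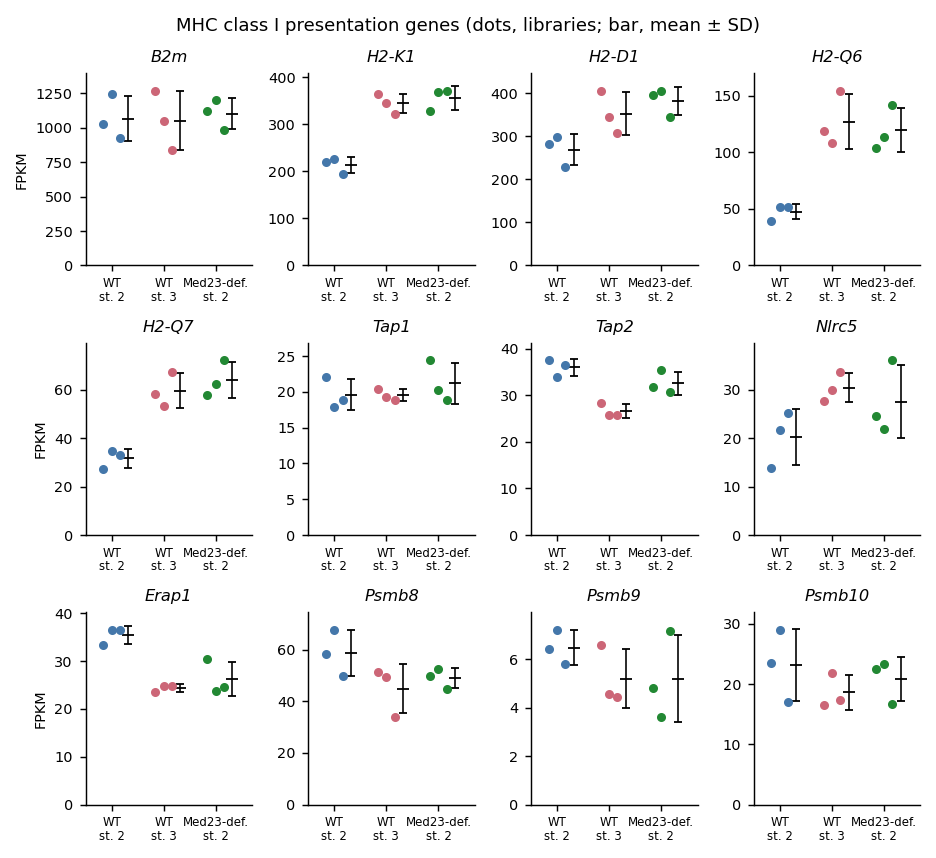
FPKM of 12 genes of MHC class I presentation in each of the 9 libraries (dots), with the mean and SD of each group; every axis starts at 0. The heavy chain genes *H2-K1*, *H2-D1*, *H2-Q6* and *H2-Q7* are lowest in WT stage 2, whereas their light chain *B2m*, *Tap1* and the 3 immunosubunits overlap between groups and *Erap1* is highest in WT stage 2.

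A wider list of 83 other interferon-induced genes, 76 of them in the table, also moved both ways. At WT stage 3, 5 rose (1.70% of all genes) and 3 fell (1.90%) past the fold and p thresholds. At an adjusted p of at most 0.05, 2 rose (0.759%) and 1 fell (0.914%). *Apol9b* rose from 0.57, 1.03 and 2.44 FPKM to 13.8, 8.04 and 9.90, by 2.35 (SE 0.35, adjusted p = 0.042, limma), and *Apol9a* by 1.75 (SE 0.32, adjusted p = 0.0653, limma), though 51.4% of the 50-base stretches of *Apol9b* occurred in *Apol9a*. *Ly6c2*, a surface protein of memory T cells, rose by 1.92 (SE 0.44, adjusted p = 0.118, limma) at WT stage 3 and fell by 2.29 (SE 0.40, adjusted p = 0.122, limma) in *Med23*-deficient cells, both past the fold and p thresholds. Its levels were 9.74, 13.0 and 4.16 FPKM in WT stage 2, 53.2, 27.1 and 26.8 in WT stage 3 and 0.67, 1.01 and 0.96 in *Med23*-deficient cells. *Ifitm10* rose by 1.09 (SE 0.28), *Ms4a4b* rose by 0.88 (SE 0.14, adjusted p = 0.0465, limma), and *Ifitm1*, of the membrane proteins that block viral entry, was listed at 0 in WT stage 2 against 0.95, 2.20 and 1.01 FPKM in WT stage 3. *Ifi27*, of the same family as *Ifi27l2a*, fell by 1.14 (SE 0.14, adjusted p = 0.0285, limma), and *Phf11b* and *Slfn5* fell by 1.12 (SE 0.30) and 1.08 (SE 0.36). In *Med23*-deficient cells *Ifitm3* rose by 1.05 (SE 0.41, adjusted p = 0.491, limma), with overlap, and *Phf11a* fell by 1.53 (SE 0.48, adjusted p = 0.366, limma). At an adjusted p of at most 0.05 there were 0 of the 75 tested in that comparison (0.213% of all genes). There, 7 were higher (3.56%) and 8 lower (6.02%) at an unadjusted p of at most 0.05. The adjusted calls of *Apol9b* and *Ms4a4b* were lost whichever library was left out, and that of *Ifi27* in 5 of 6 cases.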

How the data were processed

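RNA of thymic iNKT cells was measured in 9 libraries, 3 in each of 3 groups. Per the paper's methods and the submitters' processing notes, the authors prepared libraries with a strand-specific low-input kit, cleaned the reads (Trimmomatic 0.36), placed them on mm10 (HISAT2) and let StringTie quantify the gene models of GENCODE vM12 from reads with at most 2 placements. The authors deposited FPKM, rounded to 2 decimals, for each library apart, and it is not given in the sources used here whether strand was used. Depth is unknown, and FPKM depend on the rest of each library. Genes that share sequence or overlap can exchange reads.

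log2(FPKM + 1) was tested with limma 3.58.1 (R 4.3.3; lmFit, eBayes with a mean-variance trend) on the 6 libraries of each of 2 comparisons and the genes above 0 in at least 1 of them. Adding 1 understates the change of low genes. Calls were made at a change of 2-fold or more with an unadjusted p up to 0.05, the study's thresholds, and separately at p up to 0.05 after Benjamini-Hochberg adjustment over every gene tested. An exact permutation test of 3 against 3 libraries cannot go below p = 0.1. The fit was tested on data simulated for the WT comparison, 20680 genes of which 200 differed by 2 (log2). The first rule called 98.5% of those 200 and the second 75%, with 38.8% false calls under the first and 9.09% under the second. Where nothing differed, the rules called 140 and 0 genes. The genes made to differ were drawn only from those with a mean log2(FPKM + 1) above 2. Each gene's noise was drawn independently, whereas the members moved together within libraries. The rates may therefore not hold for the members or for smaller differences.

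The members, gene lists and tests were chosen with earlier results of these data known. Every library's value is given for members past a threshold, for those without overlap and with a difference of at least 0.58, and for the 3 with the highest mean, and other genes are named where they passed a threshold. *Irf7*, *Trim30a*, *Ifih1*, *Gbp3*, *Gbp6*, *Gbp9*, *Ifit3*, *Isg15*, *Tap1* and *Tap2* were given values after these were seen, as were *H2-Q4*, *H2-Q10*, *H2-T22*, *H2-T23*, *H2-T24* and *H2-M3*, and the *Psmb8* promoter window, inside its gene model, is not shown. Shared stretches of 50 bases were counted on GENCODE vM21 transcripts. Also run were pseudocounts of 0.1 and 0.01, a filter at a mean of 1 FPKM, no filter, the TPM scale with and without the most abundant gene, a common upper quartile, quantile normalization, limma without a trend, a linear model after Ballgown, all 9 libraries in 1 fit, the replicate number as a block, and each library left out. Python 3.11.15 with numpy 2.4.6, pandas 2.3.3 and matplotlib 3.10.9 was used for counts and figures. Some of the listed genes are not reported here.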

Additional observations from a re-analysis of the deposited data

How the results depend on the processing

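*Iigp1* was past the fold and p thresholds between the WT stages under every alternative run. *Gbp3* joined it, making 1 higher member in place of 0, with a pseudocount of 0.01, with genes of a mean of at least 1 FPKM and with the replicate block, and with a library left out the count was 0 to 1. In the *Med23*-deficient comparison that count was also 0 to 1, *Gbp3* passing without *Med23*-deficient replicate 1. The 2 higher members at an adjusted p of at most 0.05, *Gbp4* and *Gbp8*, became 1 (*Gbp8*) with no filter and 0 on the TPM scale, on the TPM scale without the most abundant gene, in the model after Ballgown and whenever a library was left out. The lower members at that threshold, 0, became 1 (*Iigp1*) with genes of a mean of at least 1 FPKM and 2 (*Iigp1* and *Tap2*) with all 9 libraries in 1 fit. The members' median between the WT stages was -0.30 in the model after Ballgown and -0.19 to -0.04 with a library left out, and the *Med23*-deficient median was -0.090 on the TPM scale, 0.13 with a common upper quartile and -0.035 to 0.047 with a library left out. The small *Med23*-deficient differences of 4 genes changed sign, *Ifnar1* to -0.10 on the TPM scale, -0.014 on that scale without the most abundant gene and -0.030 in the model after Ballgown, and with a library left out *Ifnar1* ranged from -0.089 to 0.11, *Ifng* from -0.041 to 0.57, *Ifngr1* from -0.036 to 0.41 and *Ifngr2* from -0.069 to 0.34. The cause of these changes was not tested.

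Libraries with the same replicate number were not shown to be pairs, their correlations being 0.03 to 0.16 between the WT stages and 0.004 to 0.14 in the other comparison. Between the WT stages every library correlated best with its own number, a hint from the data and not the design, but in the other comparison this did not hold. With the replicate block, 0 members in place of 2 had an adjusted p of at most 0.05 between the WT stages, and 0 in the other comparison. The depth of the libraries is unknown, so what it limits could not be computed.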
